A study of Mus musculus with 3 samples.

Results

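Enzymes, carriers and binding proteins of fatty acid, phospholipid and sterol metabolism were compared between mouse spleen RNA and a reference RNA. The set was drawn by gene symbol from families of acyl-CoA enzymes, elongases and desaturases, sterol synthesis enzymes, phospholipases A2 and C, acyltransferases, START domain proteins and fatty acid binding proteins. Of 45 genes with a matching symbol, 33 had a measurement on all 3 arrays, out of 6077 genes measured in all. On each of 3 two-colour arrays, Cy5-labelled cRNA from purchased mouse spleen total RNA was hybridised with Cy3-labelled cRNA from purchased Universal Mouse Reference RNA, a pool made from mouse cell lines, each after a single round of amplification. The labels give no strain, sex or age. Each RNA bears a single product number throughout, so p-values here reflect variation among arrays, which may be technical, and not among animals. The arrays form 1 group and no dye swap is labelled, so dye and RNA source cannot be told apart.

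Each value is a signed log ratio, with no statement of its base or of which channel is on top. Positive values are read here as the likely spleen side, going by the dyes, by the common practice of dividing red by green, and by the signs of spleen markers. B cell markers were positive past the gene test for 2 of 2 measured genes, T cell markers for 4 of 4, macrophage markers for 4 of 4 and erythroid markers for 4 of 4, with gene means from 1.18 to 4.24. The erythroid marker Alas2 had a single value, -0.63 on array 1, and 0 on the other arrays. Fibroblast markers were negative for 3 of 3, from -2.38 to -0.94. Because they helped to set the direction, these markers are not independent evidence of it. The sample titles put the reference first, which could mean the opposite order. Exact 0 stands for 24.2% to 26.8% of probes on an array and was read as no measurement. Arrays correlated across genes at 0.957 to 0.972 (Pearson, genes are not independent replicates). In RNA from a whole tissue, fewer cells of a type and less RNA per cell cannot be told apart.

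Lipid metabolism links these genes. Cells activate fatty acids to acyl-CoA, lengthen and desaturate them, burn them by beta-oxidation in mitochondria and peroxisomes, or join them into triglycerides and phospholipids. Phospholipases cut phospholipids again, A2 enzymes releasing fatty acids such as arachidonate and C enzymes releasing signalling headgroups. The sterol pathway builds cholesterol from acetyl-CoA through mevalonate and squalene, and its genes are switched on by SREBP transcription factors when sterols run low.

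The measured genes spread to both sides. By limma, 10 were positive and 15 negative at an adjusted p under 0.05, and 8 did not pass. That is 75.8% called, beside 70.3% of all 6077 genes (33.2% positive, 37.1% negative), so the share called is close to that of all genes. The counts of calls for each role, list and set of markers are to be read beside these shares of all genes. The median log ratio was -0.18 in the set and -0.03 over all genes, and the median absolute log ratio was 0.40 in the set and 0.36 over all genes. The same sign appeared on all 3 arrays for 29 of 33 genes, beside 82.6% of all genes. Against a 1.5-fold change with the values read as log2, 9 genes passed, 3 positive and 6 negative, beside 19.9% of all genes. A mean log ratio of at least 1 in size was found for 7 of the 33 genes, beside 14.2% of all genes: the phospholipases Pla2g2d, Pla2g1b and Pla2g7 on the positive side, and Cyp51, Scd3, Fads2 and Fabp5 on the negative side.

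**Figure D1:**
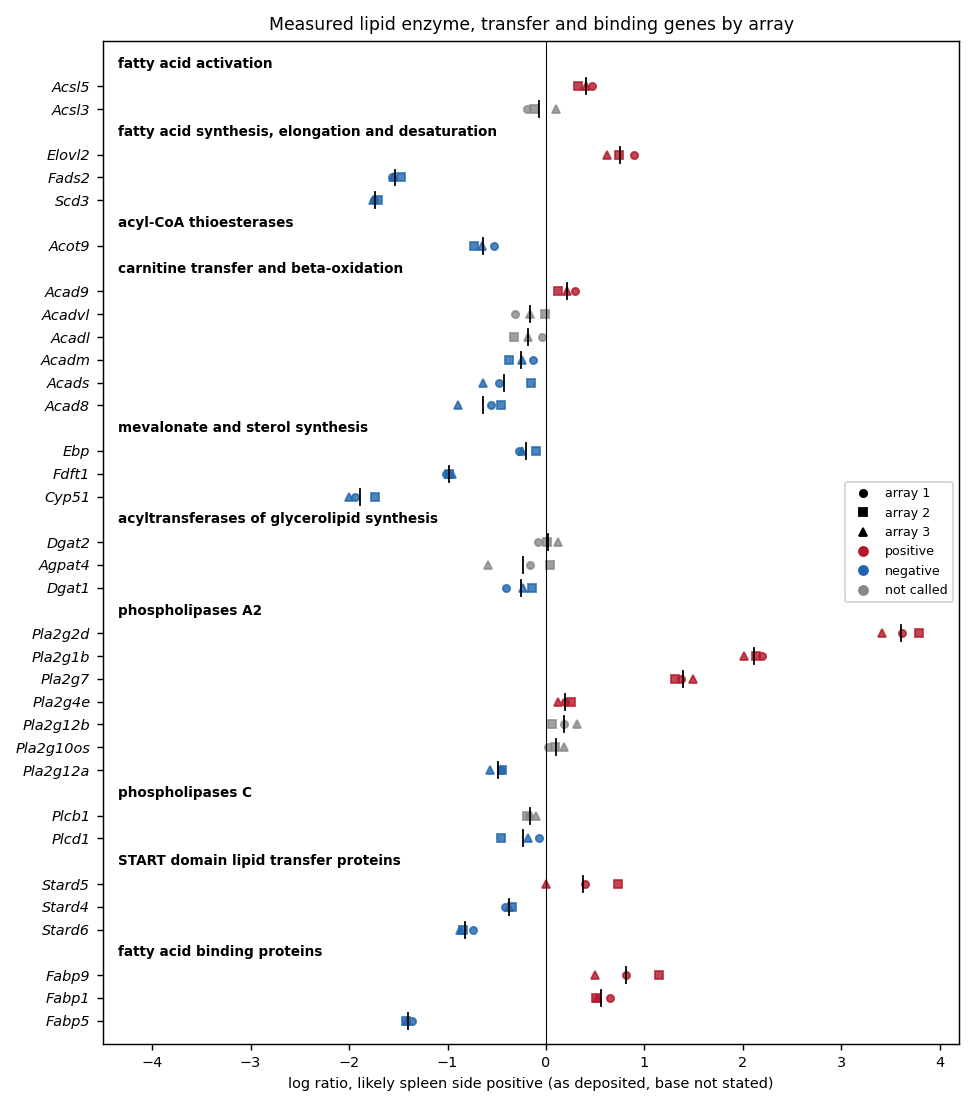
Log ratio of each of the 33 measured genes (horizontal axis, as deposited, base not stated), with 1 symbol for each array, a black tick at the mean and colour by the limma call at an adjusted p under 0.05. Genes are grouped by role. Pla2g2d lies farthest to the right at a mean of 3.61 and Cyp51 farthest to the left at -1.89, and most beta-oxidation and acyltransferase genes lie within 0.5 of 0.

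Phospholipases A2 held the highest ratios of the set. Among 7 measured genes the median was 0.19, with 4 positive calls, 1 negative call and 2 without a call. Of all genes, 33.2% were positive and 37.1% negative. The family symbol also takes in Pla2g10os, a transcript from the strand opposite Pla2g10, and without it, a choice made after seeing the data, the median of the other 6 was 0.79. Pla2g2d, a secreted phospholipase A2 known from dendritic cells of lymphoid organs, had log ratios of 3.62, 3.79 and 3.41 on arrays 1 to 3. All 3 values were far above 0, and the mean of 3.61 ± 0.19 (SD, n = 3, limma adjusted p = 1.14e-07) was rank 36 from the top of 6077 genes. The mean equals 12.2-fold in base 2 or 36.9-fold in natural logs. This value rests on 1 of 3 probes. A second probe of the gene read 1.75 on array 3 and 0 on the other arrays, and the remaining probe was 0 throughout. With 0 kept as a value the mean was 1.40 and still passed.

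Pla2g1b, the phospholipase of pancreatic juice, had log ratios of 2.19, 2.13 and 2.02 on arrays 1 to 3, averaged over 8 measured probes. The arrays lay close together, with a mean of 2.11 ± 0.089 (SD, n = 3, limma adjusted p = 3.83e-07), equal to 4.33-fold in base 2 or 8.28-fold in natural logs. Its probes did not all agree in size. For 7 probes the mean lay between 2.11 and 2.53, and the eighth had 0.30, 0.053 and 0.25 on the 3 arrays, a mean of 0.20. A further 2 probes were 0 on every array. Exocrine pancreas markers were positive for 10 of 11 measured genes, beside 33.2% of all genes. Their list median lay between 3.98 and 4.12 on the 3 arrays, with gene means from -0.14 for the lipase Cel to 5.22 for Reg2. Of the 18 markers listed 12 had a named probe, and the trypsinogen Try4 was at 0 on 1 array for each of its 2 probes and between 4.82 and 5.02 elsewhere. The part of pancreatic RNA in the ratio of Pla2g1b was not tested.

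Pla2g7, the plasma platelet-activating factor acetylhydrolase made by macrophages, had log ratios of 1.37, 1.31 and 1.49. Its 3 values were all above 1, with a mean of 1.39 ± 0.093 (SD, n = 3, limma adjusted p = 2.64e-06), equal to 2.62-fold in base 2 or 4.01-fold in natural logs. A second probe was at 0 throughout, and with 0 kept the mean was 0.69 and still passed. Macrophage markers were positive beside it, 4 of 4 measured, with a list median of 2.41, 2.53 and 2.44 on arrays 1 to 3 and Ctss at 1.35. The macrophage marker Csf1r was listed at 0 on all 3 arrays, which was read as no measurement. Their part in the ratio of Pla2g7 was not tested.

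The other phospholipases A2 had small ratios. Pla2g4e, a cytosolic member of the family, had 0.20, 0.25 and 0.13 on arrays 1 to 3, a mean of 0.19 ± 0.063 (SD, n = 3, limma adjusted p = 0.0307), the smallest called mean of the set. Its call ended without array 1 (adjusted p = 0.120), without array 2 (0.0853) and without array 3 (0.0845). Pla2g12b had 0.18, 0.057 and 0.32, a mean of 0.18 that missed the threshold (adjusted p = 0.0549) and passed without array 2 (0.25, adjusted p = 0.0236) and with each array centred on its median (0.21, adjusted p = 0.0331). Without array 3 it had 0.12 (adjusted p = 0.378), and with the trend over 5 probe numbers removed 0.066 (adjusted p = 0.243). The opposite-strand transcript Pla2g10os had a mean of 0.098 (adjusted p = 0.222). Pla2g12a, a secreted phospholipase A2, was the negative gene of the family, with -0.46, -0.44 and -0.57 on the 3 arrays and a mean of -0.49 ± 0.070 (SD, n = 3, limma adjusted p = 0.000398). Its 3 measured probes were each called negative, at -0.32, -0.49 and -0.67. Its call ended when a running median over 5 probe numbers on either side was subtracted (-0.15, adjusted p = 0.0625).

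**Figure D2:**
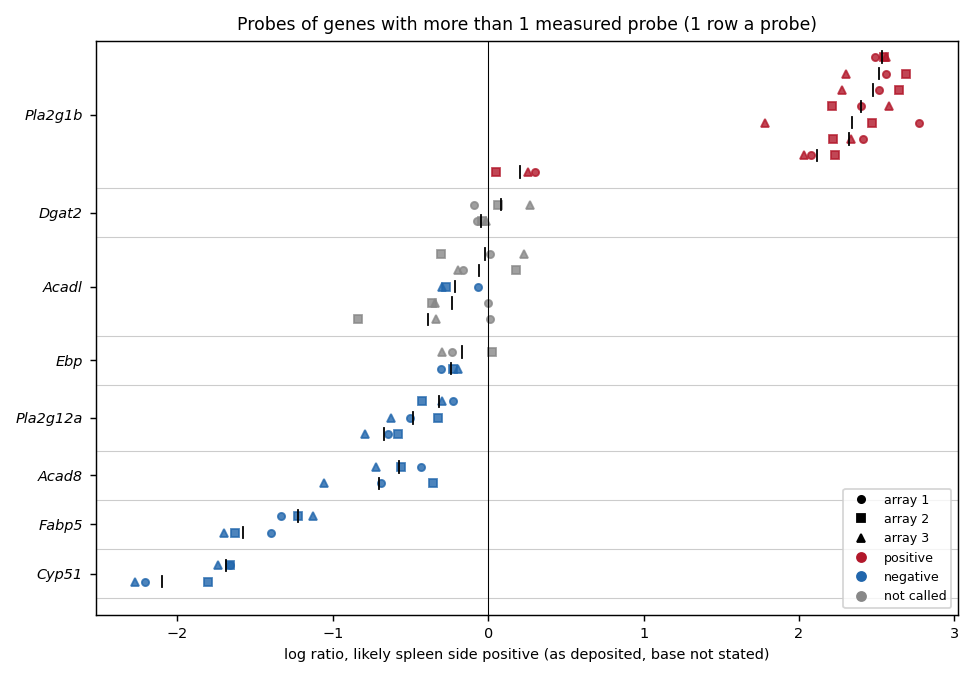
Log ratios (horizontal axis, as deposited, base not stated) of the single probes of the 8 genes with more than 1 measured probe, 1 row for each probe, with symbols for arrays 1 to 3, a black tick at the probe's mean and colour by the limma probe call. Of the 8 Pla2g1b probes 7 lie beyond 2 and the eighth at 0.20, and both Cyp51 probes and both Fabp5 probes lie beyond -1.

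Sterol synthesis genes of the set lay on the likely reference side, with 3 of 3 measured genes negative, beside 37.1% of all genes, and a median of -0.98. Mevalonate kinase, Mvk, a gene of the same pathway outside the set, was not called (-0.10, limma adjusted p = 0.189). Cyp51, the lanosterol demethylase, had log ratios of -1.94, -1.73 and -2.01 on arrays 1 to 3. All 3 arrays were far below 0, with a mean of -1.89 ± 0.14 (SD, n = 3, limma adjusted p = 1.06e-06), rank 95 from the bottom of 6077 genes. The size equals 3.71-fold in base 2 or 6.63-fold in natural logs. Both probes gave it, at -2.10 and -1.69. Fdft1, squalene synthase, the first enzyme committed to sterols, had -1.02, -0.98 and -0.95. Its arrays differed by little, with a mean of -0.98 ± 0.032 (SD, n = 3, limma adjusted p = 9.12e-06), equal to 1.98-fold in base 2 or 2.68-fold in natural logs.

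Ebp, the sterol isomerase that binds emopamil, had the smallest ratio of the 3, with -0.27, -0.10 and -0.24 and a mean of -0.21 ± 0.090 (SD, n = 3, limma adjusted p = 0.0275). Array 2 was nearest to 0, and only 1 of its 2 probes was called, at -0.24, against -0.17 for the other. The call of Ebp ended without array 1 (-0.17, adjusted p = 0.148), without array 3 (-0.19, adjusted p = 0.154) and with 0 kept (adjusted p = 0.0680), and the sign turned when the trend along probe numbers was removed (0.048 over 5 probe numbers and 0.094 over 20). Ebp had no 0 of its own, so with 0 kept its mean stayed and only the pool of tested genes changed. The same holds below wherever a call ended with 0 kept and no other mean is given. Lss, lanosterol synthase, was listed at 0 on every array. Outside the set, the methyl sterol oxidase Msmo1, a later enzyme of the same pathway, had 1 probe at -1.76 and -1.59 on arrays 1 and 3 and 0 on array 2, and another at -1.54 on array 1 alone.

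Fdft1, the other called sterol gene, was not found among the promoter sequences used. The upstream sequences of Cyp51 and Ebp are shown because both are sterol genes called on the same side. They come from RefSeq on build GRCm38.p6 and run 5′ to 3′ on the gene's strand, covering the 250 bases before the annotated start. Capitals mark CCAAT, searched on both strands, so that ATTGG is the same box on the other strand.
Cyp51, chr5:4104698-4104947, minus strand: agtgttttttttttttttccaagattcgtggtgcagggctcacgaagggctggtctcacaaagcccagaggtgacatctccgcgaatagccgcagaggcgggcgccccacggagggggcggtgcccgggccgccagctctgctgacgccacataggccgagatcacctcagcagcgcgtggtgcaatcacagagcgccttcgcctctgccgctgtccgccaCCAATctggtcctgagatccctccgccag
Ebp, chrX:8193513-8193762, minus strand: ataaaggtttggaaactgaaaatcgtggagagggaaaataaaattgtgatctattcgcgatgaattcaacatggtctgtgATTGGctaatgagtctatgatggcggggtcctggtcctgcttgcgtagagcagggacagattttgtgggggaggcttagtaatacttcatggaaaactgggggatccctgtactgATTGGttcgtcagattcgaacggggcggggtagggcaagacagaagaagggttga
The Cyp51 window held 1 CCAAT at bases -29 to -25 from the start, and the Ebp window 2 on the other strand, at -55 to -51 and -170 to -166. CCAAT on either strand stood in 33.8% of all 32851 promoter windows of this length and in 11 of 27 windows of the 25 genes of the set that matched the table. The letters TCACNCCAC, a sterol response element in its strict form, were in 1.05% of all windows and, within the set, in 1 window, that of Pla2g12a. Other forms of this element were not searched for, so a window without these letters, such as that of Cyp51, may hold one. AGGTCA repeated after any 1 base, the form bound by PPAR receptors, was in 0.0335% of all windows and in 0 of the 27. None of the matches printed overlap, and a match is a description of the letters.

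Desaturases and elongases included some of the lowest ratios of the set, with 2 of 3 measured genes negative, 1 positive and a median of -1.53. Scd3, a stearoyl-CoA desaturase known from skin, had log ratios of -1.75, -1.70 and -1.75. The arrays were almost level, with a mean of -1.74 ± 0.029 (SD, n = 3, limma adjusted p = 6.25e-07), equal to 3.33-fold in base 2 or 5.67-fold in natural logs. Fads2, the delta-6 desaturase that opens the path to long polyunsaturated fatty acids, had -1.57, -1.47 and -1.56 and a mean of -1.53 ± 0.052 (SD, n = 3, limma adjusted p = 1.25e-06). That equals 2.89-fold in base 2 or 4.62-fold in natural logs.

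Elovl2, which elongates polyunsaturated fatty acids, went the other way with 0.89, 0.74 and 0.62. Its mean was 0.75 ± 0.14 (SD, n = 3, limma adjusted p = 8.61e-05), equal to 1.69-fold in base 2 or 2.13-fold in natural logs. Scd1, the stearoyl-CoA desaturase of liver and fat, was measured on 2 arrays only, at 1.22 on array 1 and 1.35 on array 3, and it was called positive when genes measured on at least 2 arrays were tested (1.28, limma adjusted p = 5.10e-05). Scd genes are close in sequence, so which of them a probe reads is uncertain. Fads1, the delta-5 desaturase, had 0.0010 and -0.12 on arrays 1 and 2 and was not called there (adjusted p = 0.549), and the elongase Elovl1 had -0.23 on array 3 alone.

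Fatty acid binding proteins, the small carriers that hold fatty acids in the cytosol, split by member, with 2 of 3 measured genes positive and 1 negative. Fabp5, the epidermal type that macrophages also make, had log ratios of -1.36, -1.43 and -1.41. The spread was small against the size, with a mean of -1.40 ± 0.033 (SD, n = 3, limma adjusted p = 1.61e-06), equal to 2.64-fold in base 2 or 4.06-fold in natural logs. Its probes gave -1.23 and -1.58, another probe was at 0, and with 0 kept the mean was -0.93 and still passed.

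Fabp9, the testis type, had 0.81, 1.14 and 0.49, a mean of 0.82 ± 0.33 (SD, n = 3, limma adjusted p = 0.000629). Array 2 was highest and array 3 lowest, and all 3 were above 0. The call of Fabp9 ended with 0 kept (adjusted p = 0.0576), a setting that tests 7984 genes. Fabp1, the liver type, had 0.65, 0.51 and 0.52, a mean of 0.56 ± 0.080 (SD, n = 3, limma adjusted p = 0.000220). The hepatocyte markers beside it were Ttr at 1.90, the single one of 12 measured on all arrays, and Fgb, with 1 probe at 3.08 and 2.79 on arrays 1 and 2 and 0 on array 3. Their part in the ratio of Fabp1 was not tested. The call of Fabp1 ended with the trend over 5 probe numbers removed, where its value was 0 because the probe was itself the middle value of its window on each array. Fabp2, the intestinal type, was listed at 0 for both probes.

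START domain proteins, which carry sterols and other lipids between membranes, were negative for 2 of 3 genes and positive for 1. Stard4, a cholesterol carrier, had log ratios of -0.41, -0.34 and -0.38, a mean of -0.38 ± 0.037 (SD, n = 3, limma adjusted p = 0.00121). Its call ended with the trend over 5 probe numbers removed (-0.063, adjusted p = 0.212). Stard6, known from male germ cells, had -0.74, -0.84 and -0.88. It was below 0 on every array, with a mean of -0.82 ± 0.072 (SD, n = 3, limma adjusted p = 2.91e-05), equal to 1.77-fold in base 2 or 2.27-fold in natural logs, and -0.41 with 0 kept and -0.39 with that trend removed. Stard5 had 0.39, 0.74 and -0.00044, a mean of 0.38 ± 0.37 (SD, n = 3, limma adjusted p = 0.0336). Array 3 was at about 0, so the arrays did not share a sign. The call of Stard5 ended without array 1 (0.37, adjusted p = 0.113), without array 2 (0.20, adjusted p = 0.139) and with 0 kept (adjusted p = 0.246), and without array 3 the mean was 0.57.

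Acyl-CoA dehydrogenases, most of them beta-oxidation enzymes but with Acad8 of valine breakdown counted too, had small ratios, mostly negative. Among 6 measured acyl-CoA dehydrogenases the median was -0.22, with 3 negative calls, 1 positive call and 2 without a call. Of all genes, 37.1% were negative and 33.2% positive. Acad8, the isobutyryl-CoA dehydrogenase of valine breakdown, had -0.56, -0.46 and -0.89. Array 3 was lowest, and the mean was -0.64 ± 0.23 (SD, n = 3, limma adjusted p = 0.000663), with both probes called, at -0.57 and -0.70. Acads, the short-chain enzyme, had -0.48, -0.16 and -0.64, a mean of -0.42 ± 0.25 (SD, n = 3, limma adjusted p = 0.00633). Its sign turned with the trend over 5 probe numbers removed (0.065, adjusted p = 0.361), and its call ended over 20 (-0.13, adjusted p = 0.0522) and with 0 kept (adjusted p = 0.111).

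Acadm, the medium-chain enzyme, had -0.13, -0.38 and -0.24, a mean of -0.25 ± 0.12 (SD, n = 3, limma adjusted p = 0.0163). Array 2 was lowest, and the call ended without it (-0.19, adjusted p = 0.0581) and with 0 kept (adjusted p = 0.0820). Acad9, which also helps to assemble respiratory complex I, was the positive gene, with 0.30, 0.12 and 0.21 and a mean of 0.21 ± 0.087 (SD, n = 3, limma adjusted p = 0.0240). Its other probe read 0.088 and -0.083 on arrays 1 and 3 and 0 on array 2. The call of Acad9 ended without array 1 (0.17, adjusted p = 0.147), without array 3 (0.21, adjusted p = 0.105), with 0 kept (0.11, adjusted p = 0.154), with probes on at least 2 arrays (0.13, adjusted p = 0.121) and with the trend over 5 probe numbers removed (0.13, adjusted p = 0.123), and its sign turned over 20 (-0.049, adjusted p = 0.374).

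The long-chain enzymes did not pass. Acadvl had a mean of -0.16 (adjusted p = 0.0957), and passed without array 2 (-0.24, adjusted p = 0.0308), whereas it had -0.086 without array 1 (adjusted p = 0.449), -0.052 with 0 kept (adjusted p = 0.180) and -0.079 with the trend over 5 probe numbers removed (adjusted p = 0.135). A second Acadvl probe, which enters with 0 kept, read 0.17 on array 1 and 0 on the other arrays. Acadl had 5 measured probes with means from -0.39 to -0.019, of which 1 was called, and a gene mean of -0.18 (adjusted p = 0.0612) that passed with the trend over 5 probe numbers removed (-0.12, adjusted p = 0.0452). Its mean was -0.11 without array 2 (adjusted p = 0.219), -0.10 with the trend over 20 probe numbers removed (adjusted p = 0.116) and -0.39 with its lowest-numbered probe alone (adjusted p = 0.0555). The thiolase Acaa2 had 0.023 and -0.17 on arrays 1 and 2 and 0 on array 3.

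Fatty acid activation and thioester cleavage rested on few genes. Acsl5, a long-chain acyl-CoA synthetase, had log ratios of 0.47, 0.33 and 0.41. All 3 arrays were positive, with a mean of 0.40 ± 0.072 (SD, n = 3, limma adjusted p = 0.00108), equal to 1.32-fold in base 2, and 0.18 with the trend over 5 probe numbers removed. Its relative Acsl3 had -0.19, -0.12 and 0.10, a mean of -0.072 (adjusted p = 0.428), which became 0.36 (adjusted p = 0.0491) with that trend removed. Acot9, a mitochondrial acyl-CoA thioesterase, had -0.53, -0.73 and -0.65. These lay below 0 on every array, with a mean of -0.64 ± 0.0996 (SD, n = 3, limma adjusted p = 0.000138), and the call ended with 0 kept (-0.42, adjusted p = 0.0753). Acot7 had a value on array 1 alone, at -0.94.

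Triglyceride and phospholipid acyltransferases stayed near 0, with 1 of 3 measured genes negative and 2 not called. Dgat1, which makes triglyceride from diglyceride, had -0.41, -0.14 and -0.23, a mean of -0.26 ± 0.14 (SD, n = 3, limma adjusted p = 0.0166). Array 1 was lowest, and the call ended without it (-0.18, adjusted p = 0.120) and with 0 kept (adjusted p = 0.0945). Dgat2, which catalyses the same step, had -0.082, 0.010 and 0.13 and a mean of 0.018 with a 95% interval from -0.14 to 0.18 (limma adjusted p = 0.823). Agpat4, a lysophosphatidic acid acyltransferase, had -0.16, 0.043 and -0.59 and a mean of -0.24 (adjusted p = 0.107). It was called without array 2 (-0.38, adjusted p = 0.0205) and with the trend removed over 5 probe numbers (-2.04, adjusted p = 0.000349) or 20 (-0.71, adjusted p = 5.12e-05), whereas it had -0.061 without array 3 (adjusted p = 0.669) and -0.12 with 0 kept (adjusted p = 0.380). Agpat3 had a value on array 2 alone, at 0.46.

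Phospholipases C, which release inositol trisphosphate and diglyceride, were small in ratio too. Plcd1 had -0.070, -0.46 and -0.18, a mean of -0.24 ± 0.20 (SD, n = 3, limma adjusted p = 0.0422). Array 2 was lowest. The call of Plcd1 ended without array 2 (-0.13, adjusted p = 0.167), with the arrays centred (-0.21, adjusted p = 0.0650), with the lowest-numbered probe of each gene alone (adjusted p = 0.0561) and with 0 kept (-0.12, adjusted p = 0.207). Plcb1 had -0.18, -0.19 and -0.11, a mean of -0.16 (adjusted p = 0.0551), which passed with 0 kept (adjusted p = 0.0341) and with the trend removed over 5 probe numbers (-0.41, adjusted p = 0.00118) or 20 (-0.36, adjusted p = 0.000608). Plcb3 was measured on arrays 2 and 3 only, at -1.03 and -1.21, and was called negative when genes on at least 2 arrays were tested (-1.12, limma adjusted p = 0.000109).

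Of the 12 genes without a probe measured on all 3 arrays, 8 had at least 1 value, those above with Pla2g4d at 0.047 on array 2. The other 4, Lss, Fabp2, Pla2g5 and Plcd4, were listed at 0 everywhere. At the level of probes, 51 of the 78 probes of the set were measured on all arrays, and 17 were positive and 20 negative, beside 68.3% of all 11086 probes called (32.3% positive, 36% negative). No gene of the set (0 of the 8 with more than 1 measured probe) had probes called in opposite directions.

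The other genes of lipid pathways, taken from 8 lists and outside the set, gave 57 measured genes, with 18 positive, 21 negative and 18 not called and a median of -0.0043. That is 31.6% positive and 36.8% negative, beside 33.2% and 37.1% of all genes. Lists of regulators and of sterol handling had few measured genes. Of 2 lipid regulators, Insig2, which holds SREBP back in the endoplasmic reticulum, was negative at -1.001, and Mbtps1, the protease that first cuts SREBP, was positive at 0.61, a call that ended without moderation of the variance (adjusted p = 0.0718) and a value that was 0.36 with the trend over 20 probe numbers removed. Of 4 other genes of sterol synthesis and cholesterol handling, 2 were positive and 2 did not pass: the cholesterol exporter Abca1 had 1.34, the lysosomal cholesterol transporter Npc1 0.39 (0.20 with the trend over 5 probe numbers removed), and mevalonate kinase, Mvk, had -0.10 (adjusted p = 0.189). Insig1 and Pparg were listed at 0.

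Fatty acid supply genes outside the set were negative where they passed, with 4 of 8 called, beside 70.3% of all genes, and a median of -0.55. Among genes of this list not measured on all arrays, Cd36 had 2.38 on array 3 alone. Hsd17b12 had -1.25 and -1.06, and Acbd3 -0.37 and -0.53, on arrays 1 and 3 with 0 on array 2. Slc27a3 was listed at 0. Malic enzyme Me1, a source of NADPH for fatty acid synthesis, had -2.45 (-1.21 with 0 kept and -1.62 with probes on at least 2 arrays). Only 1 of its 2 probes was measured on all arrays, and the other, which entered in those settings, drew the mean nearer to 0. The dehydratase Hacd1 of fatty acid elongation had -1.72, and the citrate carrier Slc25a1 -1.01 (-0.56 with the trend over 5 probe numbers removed). Of 9 other beta-oxidation genes, 2 were positive, 3 negative and 4 not called. The sterol carrier and thiolase gene Scp2 had 1.69, the ketone body enzyme Oxct1 -0.87 (-0.58 with 0 kept) and the mitochondrial dehydrogenase Hsd17b10 -0.72. Among 5 lipase and lipid droplet genes, 2 were negative and 3 did not pass. Lpl, listed there and among the adipocyte markers, had 1 probe at 0.48 and 0.52 on arrays 1 and 3 and 0 on array 2. Plin2 of the same list had 1 probe at -0.40 and 0.16 on arrays 1 and 2 and 0 on array 3. The endothelial lipase Lipg had -1.16, and the hormone-sensitive lipase Lipe, the single adipocyte marker measured on all arrays, had -0.29, a call that ended without array 1 (-0.24, adjusted p = 0.0743), with 0 kept (adjusted p = 0.0790), without moderation of the variance (adjusted p = 0.107) and with the trend removed over 5 probe numbers (-0.079, adjusted p = 0.352), while its sign turned over 20 (0.0058, adjusted p = 0.928).

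Glycerophospholipid synthesis genes went both ways, with 3 positive, 3 negative and 3 not called of 9 and a median of 0.014. The phosphatidate phosphatase Lpin2 had 0.84, a call that ended with the trend over 5 probe numbers removed (0.11, adjusted p = 0.0697). Choline kinase Chka had -0.83 and the choline phosphotransferase Chpt1 -0.71, whose call ended with 0 kept (adjusted p = 0.0672) or without moderation of the variance (adjusted p = 0.0949) and whose value was -0.40 and -0.39 with the trend over 5 and 20 probe numbers removed.

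**Figure D3:**
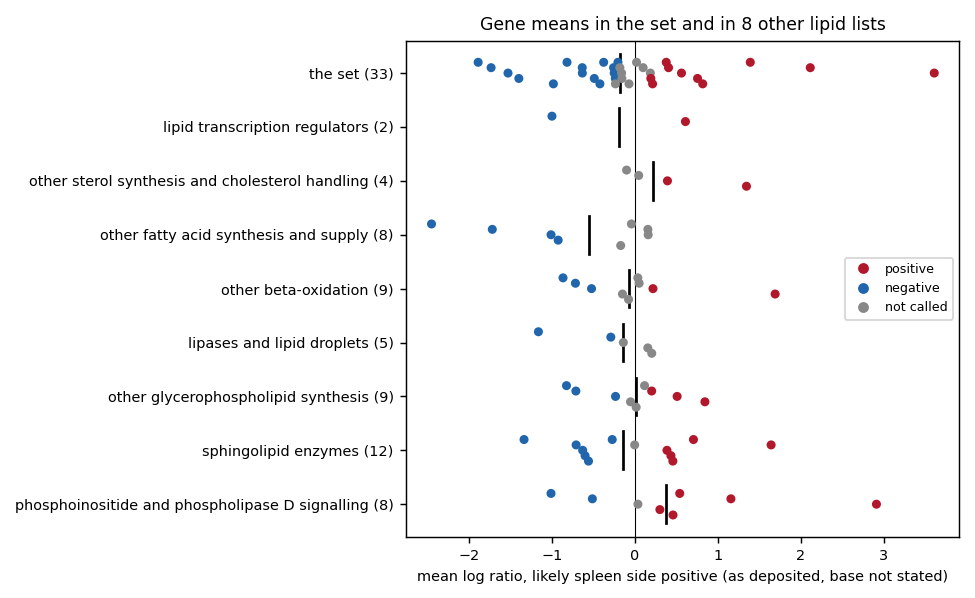
Mean log ratio of each measured gene (horizontal axis, as deposited, base not stated) in the set of 33 and in the 8 other lipid lists, with the number of genes in brackets, a black bar at the median and colour by the limma call at an adjusted p under 0.05. The fatty acid supply list has the lowest median, at -0.55, and the phosphoinositide list the highest, at 0.38.

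Neighbouring probe numbers shared part of their deviation from the mean of the arrays (correlation 0.441 to 0.588). With the trend over 5 probe numbers removed, genes that kept their call but moved by over 1.5 times were Acsl5 at 0.18, Stard6 at -0.39, Acad8 at -0.39, Acot9 at -0.24, Acadm at -0.47, Dgat1 at -0.77 and Fabp9 at 1.45, and over 20 probe numbers Pla2g4e at 0.34 and Stard5 at 0.63. Without moderation of the variance, 6 genes of the set were positive and 9 negative, beside 22.6% and 23.0% of all genes. The calls of Acad8, Acad9, Acadm, Acads, Dgat1, Ebp, Fabp9, Pla2g4e, Plcd1 and Stard5 ended. Under all 16 other settings, stricter thresholds included, 9 genes kept their call: Pla2g2d, Pla2g1b, Pla2g7, Cyp51, Fdft1, Scd3, Fads2, Fabp5 and Stard6.

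**Figure D4:**
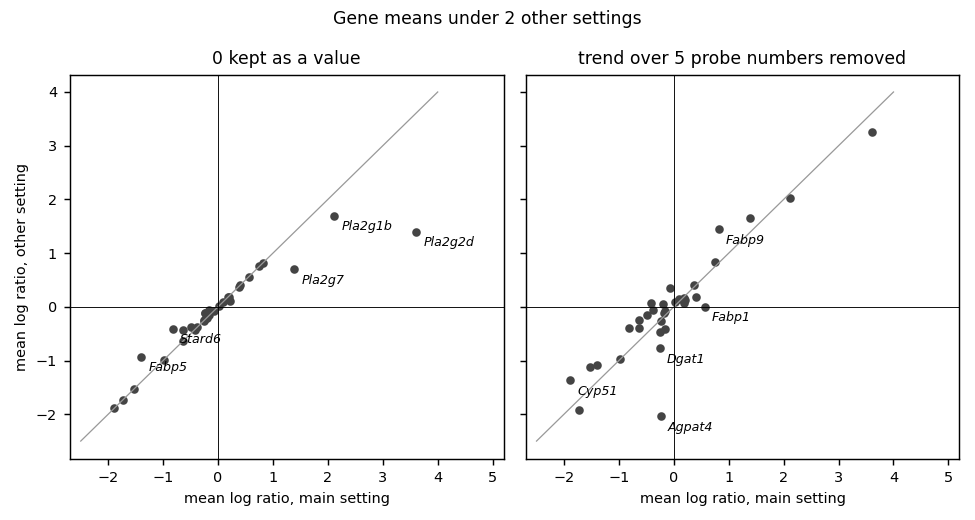
Mean log ratio of the 33 genes as reported (horizontal axis) against the mean with 0 kept as a value (left panel) and with a running median over 5 probe numbers on either side subtracted (right panel), with a line of equality and the 5 most moved genes named in each panel. Pla2g2d moves to 1.40 on the left, and Agpat4 to -2.04 and Fabp1 to 0 on the right.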

How the data were processed

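Spleen and reference cRNA were compared on 3 two-colour arrays. The table the authors deposited holds 16273 probes and, for each array, a signed log ratio. The sources used here do not give its base, numerator, background correction or normalization. Scanner intensities were not used here, signal over background is thus unknown, and precision is limited by the number of arrays. Values were tested as deposited.

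An exact 0 was read as no measurement, leaving 11086 probes. Gene names came from the platform annotation. It gives 1 symbol for 12336 probes, several for 61 and none for 3876. Gene IDs of 12228 probes were found in RefSeq (GRCm38.p6) and 0 symbols changed. Probes with 1 symbol were averaged into 6077 genes. A moderated two-sided test of each ratio against 0 (limma 3.58.1, R 4.3.3) was adjusted by Benjamini-Hochberg over all genes or probes, after a check on simulated data. Python 3.11.15 and matplotlib 3.10.9 drew the figures.

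The set, the role groups, the 8 lipid lists, the markers and the settings were chosen with earlier results of these data known. Values on each array are given for the 2 highest and 2 lowest called genes of each role, for sterol genes and for others where they show a call, and means for up to 3 genes of each list with the largest ratio past the test. Markers of skeletal and heart muscle were measured for 3 genes, 2 positive and 1 not called. Families of the symbol rule without a gene named here had no probe with a single matching symbol in the annotation used. Protein sequences were not analysed. The 16 other settings left out each array, centred or scaled the arrays, kept 0, used probes on at least 2 arrays, the median or lowest-numbered probe of a gene, robust or no moderation, an adjusted p of 0.01 or a 1.5-fold test (log2 or natural logs), or removed a trend over 5 or 20 probe numbers.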

Additional observations from a re-analysis of the deposited data

How the results depend on the processing

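Counts of positive and negative calls moved by no more than 1.5 times under centring, scaling, robust moderation, 0 kept, probes on at least 2 arrays, both ways to combine probes, both trend windows and an adjusted p of 0.01. With 0 kept, the set had 7 positive and 10 negative genes, beside 20.1% and 20.8% of the 7984 genes then tested. In that setting 9 genes of the set lost their call, some of them with their mean unchanged. Leaving out each array gave 7 to 9 positive and 13 to 15 negative genes in the set, beside 10 and 15. Of all genes 28.2% to 32.0% were then positive and 32.0% to 36.3% negative, beside 33.2% and 37.1%. The other lipid genes gave 14 to 19 and 19 to 21, beside 18 and 21. The probes gave 13 to 16 and 19 to 21, beside 17 and 20. Without moderation the set had 6 positive and 9 negative genes, beside 22.6% and 23.0% of all genes. Its probes had 12 negative calls, beside 20.2% of all probes. Against a 1.5-fold change in base 2 there were 3 positive and 6 negative genes in the set, beside 10.3% and 9.58% of all genes. There were 6 and 10 among the other lipid genes, and 9 and 8 among the probes. With natural logs, where 29.1% of all genes passed, there were 5 and 7 in the set, 7 positive among the other lipid genes, and 11 and 10 among the probes. In the set, signs turned with the trend removed for Ebp (0.048 and 0.094 over 5 and 20 probe numbers) and Acsl3 (0.36 and 0.083). They also turned for Acads (0.065 over 5), Acad9 (-0.049 over 20) and Dgat2 (-0.071 over 20). That trend is taken over the ratios themselves, so it can remove real ratios too, and the cause was not tested. No paired analysis was possible because the arrays form 1 group. Signal over background is unknown, so what depth limits was not assessed.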

Other observations

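Sphingolipid genes, which were on a list outside the set, were called in both directions. Of 12 measured, 5 were positive, 6 negative and 1 not called, beside 33.2% positive and 37.1% negative of all genes. Their median was -0.14. Sptlc2, a subunit of the enzyme that starts sphingolipid synthesis, reached a mean log ratio of 1.64 ± 0.16 (SD, n = 3, limma adjusted p = 2.46e-06). The sphingomyelin synthase Sgms2 had -1.34 ± 0.046 (SD, n = 3, limma adjusted p = 2.16e-06), and the neutral ceramidase Asah2 -0.71, whose call ended with 0 kept (adjusted p = 0.0527) or without moderation of the variance (adjusted p = 0.0789).

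In the list of phosphoinositide, phospholipase D and eicosanoid genes, 5 of 8 measured were positive, 2 negative and 1 not called, with a median of 0.38. Beside them, 33.2% of all genes were positive and 37.1% negative. The diglyceride kinase Dgka, abundant in T cells, had the highest mean at 2.91 ± 0.18 (SD, n = 3, limma adjusted p = 2.53e-07). Protein kinase C beta, Prkcb, known from B cells, was positive at 1.16, and protein kinase C alpha, Prkca, negative at -1.01 (-0.36 with the trend over 5 probe numbers removed). The T and B cell markers were positive beside them, 4 of 4 and 2 of 2 measured, and their part in these ratios was not tested.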
